A study of Mus musculus with 6 samples.

Results

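Prostaglandins are made and sensed through a small set of genes, and 10 of them were followed here in ID8 cells with and without Trp53: the cyclooxygenase genes Ptgs1 and Ptgs2, the terminal synthase genes Ptges, Ptges2, Ptges3, Ptgis and Ptgds, the breakdown gene Hpgd, and the receptor genes Ptger4 and Ptgfr. They were taken by symbol from a gene count table of 41327 genes, and 8 of the 10 had enough counts to be tested among 13651 tested genes. The genes were chosen with the contrast between the genotypes already known, so their own values are given as a description, with no p, and whether they passed the call rule used for all genes supports nothing further. ID8 is an immortalized line from the ovarian surface epithelium of C57BL/6 mice, grown here untreated and asynchronously. Total RNA was sequenced from 3 libraries labelled Trp53_KO (genotype Trp53-/-) and 3 libraries labelled Trp53_WT (genotype Trp53+/+). The labels do not say how the knockout was made, whether it is 1 clone, or whether the replicates are separate cultures. The p-values below therefore measure the spread between libraries, which may be technical.

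Prostaglandin synthesis starts when a phospholipase frees arachidonic acid from membranes. The cyclooxygenases, COX-1 (Ptgs1) and COX-2 (Ptgs2), turn it into prostaglandin H2, which terminal synthases convert into prostaglandin E2, prostacyclin, prostaglandin D2, prostaglandin F2-alpha or thromboxane. The products leave the cell, act on G protein-coupled receptors that raise or lower cAMP or calcium, and are ended by uptake and oxidation. COX-1 is usually made steadily, whereas COX-2 RNA is induced by growth factors and inflammatory signals and decays quickly; in the ovary COX-2 is best known for its part in ovulation.

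The libraries held 16597529 to 19574772 counts in Trp53_KO and 15319956 to 19954170 counts in Trp53_WT. Trp53 itself averaged 26.8 ± 2.4 CPM (counts scaled to a common library size) in Trp53_KO and 104 ± 6.4 CPM in Trp53_WT (SD, n = 3 each; log2 fold change -1.95 ± 0.09 SE, edgeR adjusted p = 2.7e-07), so its RNA was reduced but still present. Trp53_WT replicate 1 stood apart from the other libraries of its group, with a chi-square per degree of freedom of 27.5 and 26.9 against them where they gave 2.01 against each other; pairs of Trp53_KO libraries gave 4.27 to 8.81. Among 13 epithelial markers 12 were tested, of which 6 were higher and 4 lower in Trp53_KO. Among all tested genes 14.1% were called higher and 16.1% lower (edgeR adjusted p under 0.05). Krt8, Krt18, Msln and Wt1 were abundant in both genotypes. Bnc1 and Lrrn4 were each nearly absent from 1 of them, and Upk3b was present in both but much lower in Trp53_WT. Bnc1 averaged 0.0726 ± 0.030 CPM in Trp53_KO and 38.9 ± 1.9 CPM in Trp53_WT, Lrrn4 65.5 ± 0.81 CPM in Trp53_KO and 0.235 ± 0.094 CPM in Trp53_WT, and Upk3b 531 ± 52 CPM in Trp53_KO and 73.7 ± 5.0 CPM in Trp53_WT (SD, n = 3 each). The summed level of 12 leukocyte markers was 8.08 to 10.1 CPM in Trp53_KO and 32.0 to 35.1 CPM in Trp53_WT, with 6 of the 12 at 0, Adgre1 and Itgam among them; most of this difference was Cd14, at 5.09 CPM in Trp53_KO and 28.3 CPM in Trp53_WT. The summed level of 7 fibroblast markers was 229 to 251 CPM in Trp53_KO and 101 to 108 CPM in Trp53_WT, with Lum and Pi16 at 0; most of this was Dcn, at 235 CPM in Trp53_KO and 102 CPM in Trp53_WT. For 8 granulosa and theca markers it was 24.1 to 26.8 CPM in Trp53_KO and 4.65 to 5.47 CPM in Trp53_WT, with Foxl2, Fshr, Cyp19a1 and Lhcgr at 0; most of this was Star, at 21.5 CPM in Trp53_KO and 2.62 CPM in Trp53_WT. For 8 endothelial markers it was 47.7 to 55.2 CPM in Trp53_KO and 45.1 to 47.7 CPM in Trp53_WT, with Cdh5 and Kdr at 0. All 4 tested endothelial markers were called, beside 30.3% of all tested genes, Pecam1 and Esam as higher and Flt1 and Egfl7 as lower. The part of these marker differences in the prostaglandin genes was not tested, and in bulk RNA fewer cells of a type and less RNA per cell cannot be told apart.

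Ptgs2, the inducible cyclooxygenase gene (chr1:150100031-150108227, plus strand, mm10; gene positions are GENCODE's), was the member with the most counts in Trp53_WT and had far fewer in Trp53_KO. It had 254, 273 and 175 CPM in the Trp53_KO libraries, against 939, 1005 and 856 CPM in the Trp53_WT libraries. The highest Trp53_KO library lay well under the lowest Trp53_WT library. The means were 234 ± 52 CPM in Trp53_KO and 934 ± 74 CPM in Trp53_WT (SD, n = 3 each), and the log2 fold change was -2.00 ± 0.15 (SE; Trp53_KO over Trp53_WT throughout), which is 3.99-fold lower in Trp53_KO. Leaving out any library kept it between -2.12 and -1.82.

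Ptgs1, the steadily made cyclooxygenase gene (chr2:36230426-36252272, plus strand), differed the other way and by much less. It had 265, 256 and 273 CPM in Trp53_KO, against 214, 203 and 211 CPM in Trp53_WT, again with no overlap between the groups. The means were 265 ± 8.8 CPM in Trp53_KO and 209 ± 5.5 CPM in Trp53_WT (SD, n = 3 each), and the log2 fold change was 0.34 ± 0.06 (SE), or 1.26-fold higher in Trp53_KO.

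Of the 8 tested members, Ptgs1, Ptgis, Ptgds and Ptger4 passed the call rule as higher in Trp53_KO (p adjusted by Benjamini and Hochberg over all 13651 genes below 0.05 in the quasi-likelihood test of edgeR), Ptgs2 and Ptges passed it as lower, and Ptges2 and Ptges3 did not pass. Ptges no longer passed with a replicate block or without Trp53_KO replicate 2, Trp53_KO replicate 3, Trp53_WT replicate 2 or Trp53_WT replicate 3, which left 1 member called lower. Across all tested genes 30.3% passed, 14.1% as higher and 16.1% as lower. The groups of libraries did not overlap for any of the 8, with Trp53_KO above in 6 and below in 2. Among all tested genes 46.0% had groups that did not overlap, 21.8% with Trp53_KO above and 24.2% with it below. As the members were chosen from this contrast, nothing is read from their share. Without Trp53_WT replicate 1, the library that stood apart, the Ptgs2 log2 fold change was -1.99, the Ptgs1 log2 fold change 0.35, the Ptgis log2 fold change 0.60, the Ptgds log2 fold change 2.69, the Ptger4 log2 fold change 1.80 and the Ptges log2 fold change -2.62.

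**Figure D1:**
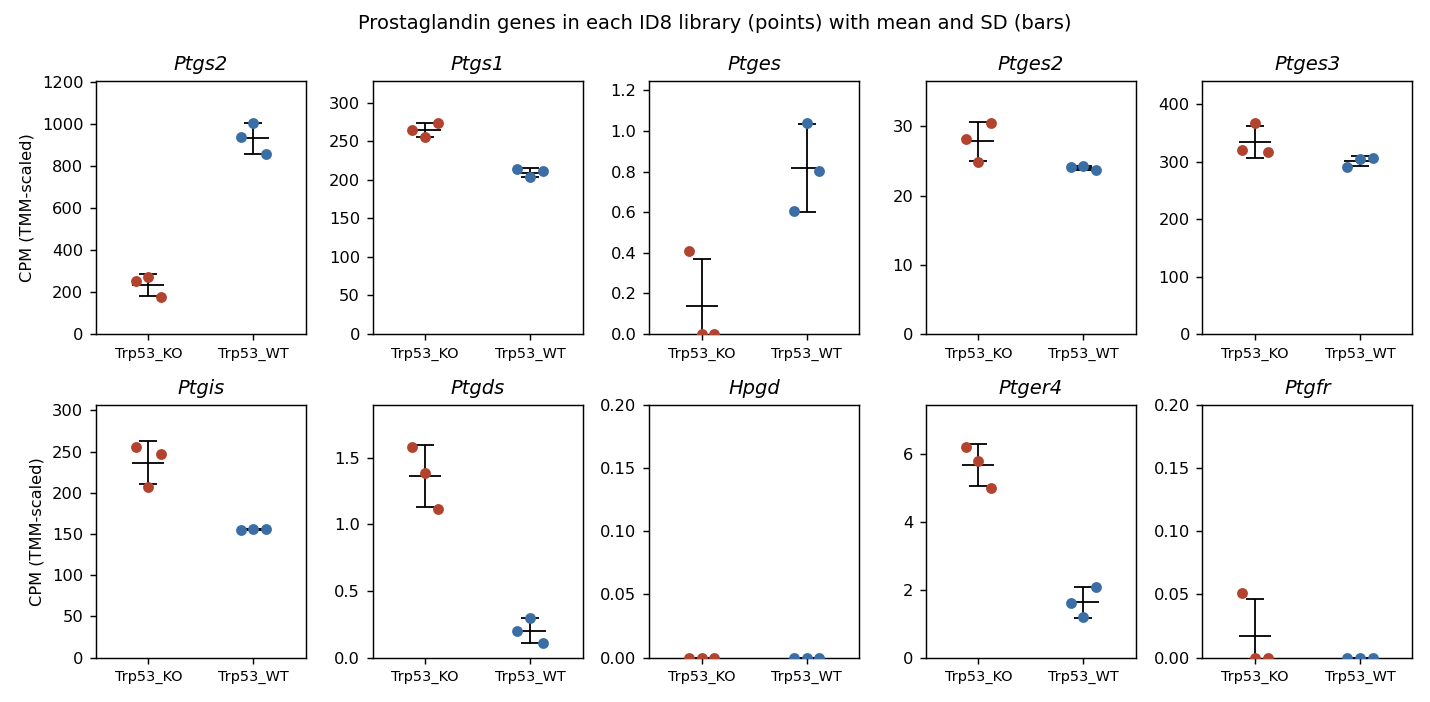
Each point is 1 library and gives a member's CPM, scaled with TMM size factors, on an axis of its own that starts at 0, with Trp53_KO left of Trp53_WT and bars for mean and SD (n = 3 each). Ptgs2 sits at 175 to 273 CPM in Trp53_KO and 856 to 1005 CPM in Trp53_WT, while Ptgs1, Ptgis, Ptgds and Ptger4 sit higher in every Trp53_KO library than in any Trp53_WT library.

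The opposite differences inverted the order of both cyclooxygenase genes. Levels of different genes were compared per length, as CPM per kilobase of merged exon (RPKM). Ptgs2 averaged 51.1 ± 11 RPKM in Trp53_KO and 204 ± 16 RPKM in Trp53_WT, and Ptgs1 averaged 68.2 ± 2.3 RPKM in Trp53_KO and 53.9 ± 1.4 RPKM in Trp53_WT (SD, n = 3 each). The ratio of Ptgs2 to Ptgs1 per length was 0.814, 0.904 and 0.544 in the Trp53_KO libraries, against 3.72, 4.19 and 3.44 in the Trp53_WT libraries. COX-1 RNA was thus the more abundant form in every Trp53_KO library, and COX-2 RNA in every Trp53_WT library. Among tested genes with a known length, Ptgs2 ranked 1025th per length in Trp53_KO and 126th in Trp53_WT. With the longest transcript in place of merged exons the mean ratio was 0.572 in Trp53_KO and 2.87 in Trp53_WT, so the order in each genotype did not depend on that choice.

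**Figure D2:**
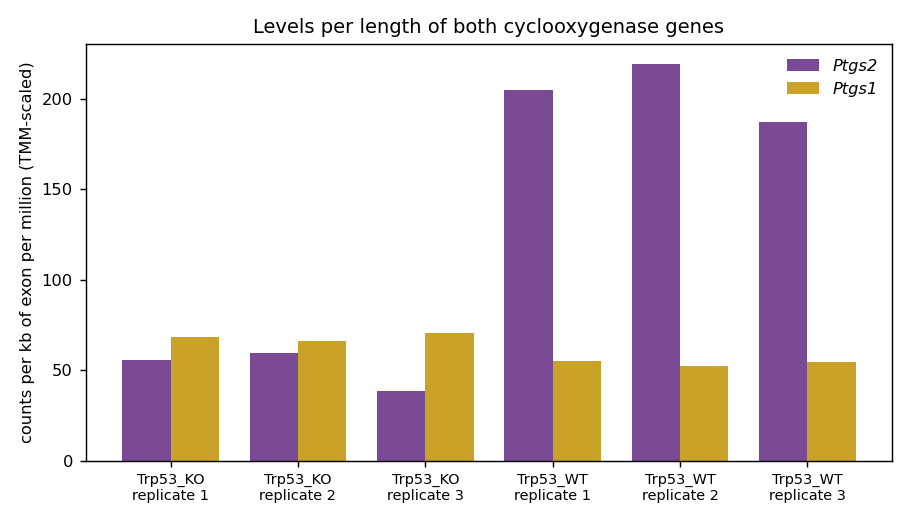
Bars give the level per length of Ptgs2 and Ptgs1 in each library, in TMM-scaled RPKM. The Ptgs2 bar is the lower of the pair in each of the 3 Trp53_KO libraries and several times the Ptgs1 bar in each of the 3 Trp53_WT libraries.

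The promoters of both genes, shown because these genes moved in opposite directions, differ in composition. The sequences are from RefSeq (GRCm38.p6) and run 5′ to 3′ along the gene for the 250 bases before its start, at chr1:150099781-150100030 on the plus strand for Ptgs2 and chr2:36230176-36230425 on the plus strand for Ptgs1. Capitals mark matches to any of 8 motifs searched on both strands.
Ptgs2: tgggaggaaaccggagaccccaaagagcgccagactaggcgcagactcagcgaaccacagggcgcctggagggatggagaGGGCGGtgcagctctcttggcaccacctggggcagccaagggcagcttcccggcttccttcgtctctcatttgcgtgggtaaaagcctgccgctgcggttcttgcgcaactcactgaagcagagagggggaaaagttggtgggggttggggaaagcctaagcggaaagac
Ptgs1: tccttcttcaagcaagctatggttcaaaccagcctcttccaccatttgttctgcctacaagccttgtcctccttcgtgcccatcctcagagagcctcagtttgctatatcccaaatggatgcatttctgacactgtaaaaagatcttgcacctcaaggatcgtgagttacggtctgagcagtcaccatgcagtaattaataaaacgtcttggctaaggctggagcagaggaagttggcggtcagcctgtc
The Ptgs2 stretch is 61.6% G or C and holds 1 GC box (GGGCGG), and the Ptgs1 stretch is 48% G or C with no match. Just after the annotated RefSeq start of Ptgs2 lies the core of a cAMP response element (TGACG, read on the minus strand) that shares bases with an E-box (CACGTG), both in capitals in the following stretch at chr1:150100036-150100060.
Ptgs2 after the start: caccactaCGTCACGTGgagtccgc
In windows of 300 bases (250 before the start and 50 after it) around 32851 RefSeq starts, that core was found in 20.8%, the E-box in 7.15% and the GC box in 35.7%. The other motifs were the TATA box (TATAAA, 13.6%), the CCAAT box (CCAAT, 37.4%), the AP-1 site (TGANTCA, 7.81%), the NF-kB consensus (8.46%) and the p53 half-site consensus (8.36%). No p53 half-site match lay in the Ptgs2 or Ptgs1 window; Ptgfr, which had almost no counts, was the only member of the 9 with a RefSeq promoter that had one. A match is a string of letters and not a shown site of binding, and its absence from a window says nothing about a factor.

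RNA from the introns of Ptgs2 was lower in Trp53_KO as well as RNA from its last exon. The authors' deposited table of repeat elements lists, for each of 773731 repeat rows, the log2 fold change together with its FDR (false discovery rate). Of these rows 304 lie in members, with none in Ptgds, Hpgd or Ptgfr. In the authors' deposited table all 10 repeats read on the Ptgs2 strand had negative values, 9 of them at an FDR under 0.05 and 8 at an FDR under 0.01. Rows past an FDR of 0.05 made up 0.672% of the authors' deposited table, 0.284% as lower. The 7 intronic repeats had values between -2.998 and -1.56 with a median of -2.04 in the authors' deposited table. The 3 repeats in the 3′UTR had a median of -1.90 in the authors' deposited table, close to the intronic median and to the gene's own -2.00. The strongest single value in the authors' deposited table was -2.998 for an intronic (CA)n repeat (FDR = 7.4e-08), and an AT-rich repeat 0.551 kb from the start had -2.60 (FDR = 7.0e-17). The 1 repeat that missed the threshold was an intronic (CATA)n at -2.46 (FDR = 0.197) in the authors' deposited table, and a repeat read on the other strand was listed at 0. These rows come from the same 6 libraries as the gene counts, so they show where within the gene the reads fell and are not a second measurement.

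**Figure D3:**
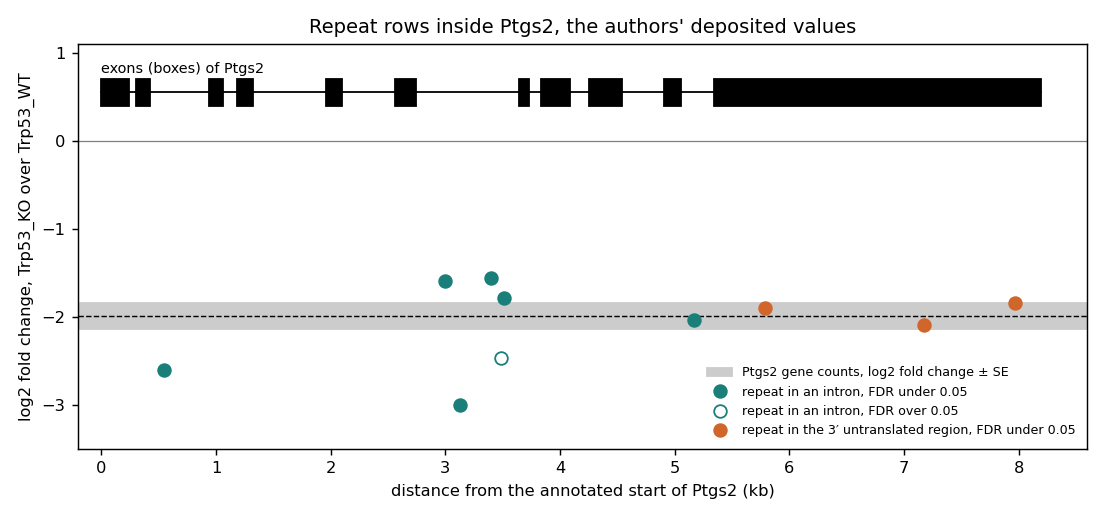
Points are the repeat rows of the authors' deposited table on the Ptgs2 strand, placed by distance from the gene start in kb, with the listed log2 fold change (Trp53_KO over Trp53_WT) on the vertical axis and the exons drawn along the gene. All 10 points lie between -2.998 and -1.56, in introns as in the 3′UTR.

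For repeats within Ptgs1 and Ptgis most listed values were above 0, with small medians and a wide range. Of 35 repeats on the Ptgs1 strand 32 were above 0 in the authors' deposited table, with a median of 0.56 and a range from -0.90 to 3.65, and 1 passed the FDR threshold, an intronic (CATA)n at 1.67 (FDR = 0.0348). Of 80 repeats on the Ptgis strand 65 were above 0 in the authors' deposited table, with a median of 0.37 and a range from -1.92 to 1.92, and none passed an FDR of 0.05. Of 51 repeats on the Ptges strand 32 were below 0 and 5 above in the authors' deposited table, with none past the threshold. For Ptges2 and Ptges3 the medians over 17 and 63 repeats in the authors' deposited table were -0.0041 and 0.015. On the Ptger4 strand the authors' deposited table listed 2 repeats, an intronic one at 0 and an exonic one at 1.86 (FDR = 0.41). On the other strand within Ptger4 it listed 35, of which 25 were below 0 and 10 above, with a median of -0.243. No Ptger4 row on either strand passed the threshold.

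Both noncoding genes beside Ptgs2 had lower levels in Trp53_KO; they and the other neighbours were looked up after the Ptgs2 values were seen. Ptgs2os lies on the minus strand (chr1:150074873-150099963). Its own start is 68 bases before the Ptgs2 start, and it runs away from Ptgs2. It averaged 5.25 ± 0.45 CPM in Trp53_KO and 10.4 ± 0.48 CPM in Trp53_WT (SD, n = 3 each; log2 fold change -0.98 ± 0.12 SE, edgeR adjusted p = 1.6e-04). Ptgs2os2, which RefSeq also names lincRNA-Cox2, lies on the minus strand 50.8 kb beyond the end of Ptgs2 (chr1:150159043-150164948). It had 3, 3 and 5 counts in the Trp53_KO libraries, against 87, 119 and 96 counts in the Trp53_WT libraries. Its level was thus close to the 3-count floor in Trp53_KO, at 0.200 ± 0.059 CPM, against 5.64 ± 0.42 CPM in Trp53_WT (SD, n = 3 each; log2 fold change -4.77 ± 0.24 SE, edgeR adjusted p = 4.5e-07). In mouse macrophages lincRNA-Cox2 is known as an inflammation-induced long noncoding RNA.

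Of the 11 genes other than Ptgs2 within 500 kb of it, these noncoding genes included, 5 were tested, 1 of them passing as higher and 3 as lower. Across all tested genes 14.1% passed as higher and 16.1% as lower, and nothing is read from so few neighbours. Pla2g4a, which encodes the cytosolic phospholipase A2 that frees arachidonic acid, lies 138.7 kb before Ptgs2 and is described with its pathway. Tpr, a nuclear pore gene 284.6 kb beyond Ptgs2, had a log2 fold change of 0.04 ± 0.06 (edgeR adjusted p = 0.68). Hmcn1, an extracellular matrix gene 454.3 kb beyond, was the 1 neighbour called higher. It averaged 64.4 ± 12 CPM in Trp53_KO, against 2.28 ± 0.72 CPM in Trp53_WT (SD, n = 3 each; log2 fold change 4.85 ± 0.20 SE, edgeR adjusted p = 1.4e-07). Ptgs2 and both noncoding genes were called lower in Trp53_KO, and Tpr and Hmcn1 were not. Whether the genes of this locus moved together was not tested. The small difference of Pla2g4a lost its call in 4 of 13 alternatives.

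**Figure D4:**
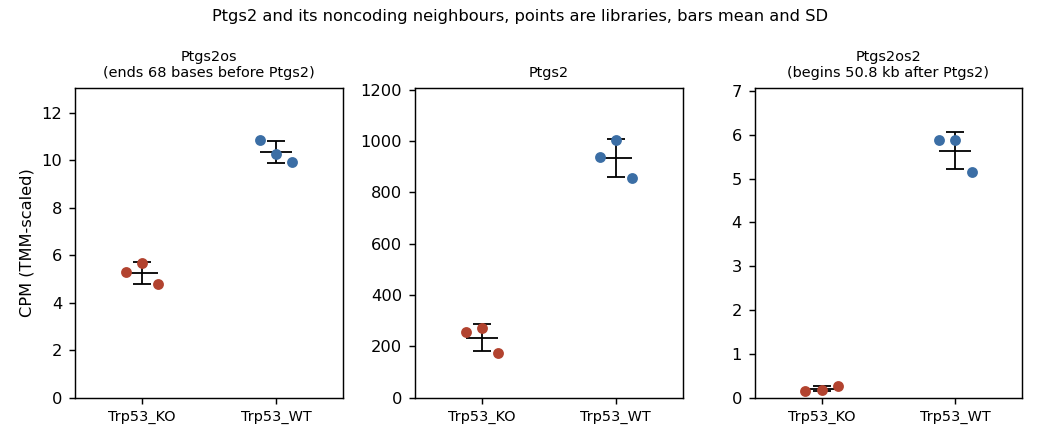
Points are libraries and give the CPM of Ptgs2os, Ptgs2 and Ptgs2os2, each on its own axis from 0, with bars for mean and SD (n = 3 each). All 3 genes are lower in every Trp53_KO library than in any Trp53_WT library, and Ptgs2os2 is near 0 in Trp53_KO.

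Among the prostaglandin E synthase genes, the inducible form was barely detected and had the largest difference, and the others differed little. Ptges encodes microsomal prostaglandin E synthase-1, the enzyme usually induced together with COX-2 (chr2:30889471-30929863, minus strand). It had 8, 0 and 0 counts in the Trp53_KO libraries, against 9, 21 and 15 counts in the Trp53_WT libraries. These are 0.136 ± 0.24 CPM in Trp53_KO and 0.817 ± 0.22 CPM in Trp53_WT (SD, n = 3 each), with no overlap, although the 8 counts of Trp53_KO replicate 1 lie just under the 9 counts of Trp53_WT replicate 1. The log2 fold change was -2.47 ± 0.75 (SE). Without Trp53_KO replicate 1 the group had no counts left, and the fitted value of -6.90 then depends on the prior count. The Trp53_KO libraries with 0 counts are each compatible with up to 3 counts, that is 0.181 CPM in replicate 2 and 0.161 CPM in replicate 3.

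The RefSeq start of Ptges lies inside the gene as GENCODE annotates it, and the 250 bases before it are shown because Ptges and Ptgs2 were the members with lower RNA in Trp53_KO (GRCm38.p6, chr2:30903298-30903547, minus strand, 59.6% G or C). Capitals mark 2 GC boxes.
Ptges: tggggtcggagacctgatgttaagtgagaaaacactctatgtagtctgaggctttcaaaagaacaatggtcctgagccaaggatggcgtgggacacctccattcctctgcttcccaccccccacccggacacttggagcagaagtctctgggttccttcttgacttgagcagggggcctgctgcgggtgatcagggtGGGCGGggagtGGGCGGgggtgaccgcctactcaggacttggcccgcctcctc
The GC box was the one motif of the 8 that its window shared with that of Ptgs2, and it is common among promoters, as given above.

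Ptges2 encodes microsomal prostaglandin E synthase-2, a steadily made membrane enzyme (chr2:32395896-32405772, plus strand). It had 28.2, 24.8 and 30.5 CPM in Trp53_KO, against 24.1, 24.3 and 23.6 CPM in Trp53_WT. The lowest Trp53_KO library was barely above the highest Trp53_WT library. The log2 fold change was 0.21 ± 0.09 (SE) and did not pass the call rule, which it passed only when Trp53_KO replicate 2 was left out.

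Ptges3 encodes the cytosolic form, better known as the HSP90 co-chaperone p23 (chr10:128058954-128077272, plus strand). It had 320, 367 and 316 CPM in Trp53_KO, against 292, 305 and 307 CPM in Trp53_WT. The groups were close together, and the log2 fold change of 0.15 ± 0.07 (SE) did not pass the call rule. RefSeq lists a pseudogene copy, Ptges3-ps, that may share reads with it, so its level is uncertain. Per length it was the most abundant of the 5 member synthase genes, at 151 ± 13 RPKM in Trp53_KO and 136 ± 3.8 RPKM in Trp53_WT, and Ptges2 stood at 5.51 ± 0.56 RPKM in Trp53_KO and 4.75 ± 0.065 RPKM in Trp53_WT (SD, n = 3 each).

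Ptgis, the prostacyclin synthase gene (chr2:167191805-167240604, minus strand), had higher levels in Trp53_KO. It had 256, 207 and 247 CPM in Trp53_KO, against 155, 156 and 156 CPM in Trp53_WT. The Trp53_WT libraries were nearly identical and the Trp53_KO libraries spread more widely above them. The means were 236 ± 26 CPM in Trp53_KO and 156 ± 0.62 CPM in Trp53_WT (SD, n = 3 each), and the log2 fold change was 0.60 ± 0.08 (SE), or 1.52-fold higher. Set against Ptgs2 per length, the ratio of Ptgis to Ptgs2 was 1.79, 1.35 and 2.51 in the Trp53_KO libraries, against 0.295, 0.277 and 0.326 in the Trp53_WT libraries. Prostacyclin synthase RNA thus exceeded COX-2 RNA per length in each Trp53_KO library and was below it in each Trp53_WT library.

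Ptgds, the lipocalin-type prostaglandin D synthase gene (chr2:25466709-25470046, minus strand), was found at very low levels in both genotypes. It had 31, 23 and 21 counts in the Trp53_KO libraries, against 3, 6 and 2 counts in the Trp53_WT libraries. The means were 1.36 ± 0.23 CPM in Trp53_KO and 0.202 ± 0.095 CPM in Trp53_WT (SD, n = 3 each), and the log2 fold change was 2.70 ± 0.37 (SE), which was 3.14 without Trp53_WT replicate 2.

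Hpgd encodes the dehydrogenase that begins the inactivation of prostaglandins, and no count was found for it in any of the 6 libraries (chr8:56294585-56321043). A count of 0 allows up to 3 counts over a group, that is 0.0547 CPM in Trp53_KO and 0.0558 CPM in Trp53_WT. Ptgfr, the receptor gene for prostaglandin F2-alpha (chr3:151796502-151837630), had 1 count in Trp53_KO replicate 1 and 0 in the other 5 libraries.

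Ptger4, which encodes the EP4 receptor that answers prostaglandin E2 by raising cAMP (chr15:5206661-5244187, minus strand), had higher levels in Trp53_KO. It had 122, 96 and 94 counts in the Trp53_KO libraries, against 24, 24 and 39 counts in the Trp53_WT libraries. In every Trp53_KO library the level was above that of every Trp53_WT library, at 5.67 ± 0.62 CPM in Trp53_KO and 1.63 ± 0.45 CPM in Trp53_WT (SD, n = 3 each). The log2 fold change was 1.80 ± 0.20 (SE), or 3.48-fold higher. Ptger4 shares 1015 exonic bases with Gm15937 and 82 with Ttc33, both on the other strand, and whether counting used strand is not given in the sources used here. Reads in those bases cannot be assigned, so the Ptger4 level is uncertain to that extent. Within Ptger4 the authors' deposited table listed 35 repeats on the other strand, some of them in its exons, and 2 on its own strand. Neither of the repeats on its own strand was called, so these rows do not settle the Ptger4 level. Ttc33 itself had 2364 counts over the Trp53_KO libraries and 1940 over the Trp53_WT libraries.

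The 250 bases before the Ptger4 start are shown because Ptger4 was the member receptor with counts in every library (RefSeq, GRCm38.p6, chr15:5244188-5244437, minus strand, 66.8% G or C). Capitals mark 4 GC boxes, read on the minus strand and 2 of them sharing a base, and 1 CCAAT box.
Ptger4: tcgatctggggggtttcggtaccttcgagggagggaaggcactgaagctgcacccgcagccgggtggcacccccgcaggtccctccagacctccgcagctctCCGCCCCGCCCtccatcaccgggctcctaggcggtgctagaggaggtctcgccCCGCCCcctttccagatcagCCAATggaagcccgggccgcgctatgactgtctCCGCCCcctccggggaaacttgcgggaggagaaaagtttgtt
No other member window held a CCAAT box. Of the remaining members, Ptges2 had an E-box, Ptges3 the core of a cAMP response element, GC boxes and an NF-kB match, Ptgds an AP-1 and an NF-kB match, and Hpgd a TATAAA match and a GC box. The TATAAA of Hpgd lay after its start, at bases 5 to 10, where a TATA box for that start would not lie. The TGACG of Ptges3 lay after its start too, at bases 12 to 16.

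For each tested member the genes with the most similar profile were found as those with the smallest root-mean-square difference of log2 CPM, each centred on its own mean, over the 6 libraries and among 9735 genes. For Ptgs2 these were Artn (0.145 log2 units), Tprg (0.165) and Ckap4 (0.171), with log2 fold changes of -1.86, -1.99 and -1.87. For Ptger4 they were Sprr2a1, Cdc42ep2 and Sync, at 0.150, 0.153 and 0.178 log2 units. For Ptgs1 they were Ap2a2, Txlna and Kdm2b, at 0.023 to 0.026 log2 units, and for Ptgis they were Galnt10, Dhh and Zbtb48, at 0.028 to 0.039. Ptgds and Ptges, with few counts, had no close neighbour: the nearest were Fstl1 at 0.260 and Krt14 at 0.658 log2 units. As Ptgs2 and its nearest genes share the same 6 libraries and a like difference between genotypes, nearness says only that their values moved together.

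The genes around the members were taken from 8 lists covering the rest of the pathway, 121 genes in all, of which 120 were in the table and 79 were tested. Of the 79, 12 rose, 19 fell and 48 did not pass (edgeR, Benjamini-Hochberg adjusted p under 0.05 over all tested genes), with a median log2 fold change of -0.07 beside -0.02 over all tested genes. That is 39.2% called, beside the 30.3% of all tested genes, and nothing is read from the difference. The counts given below for each list stand beside 14.1% of all tested genes called higher and 16.1% called lower. Nothing is read from them either. Without Trp53_KO replicate 3 the genes that fell numbered 12.

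**Figure D5:**
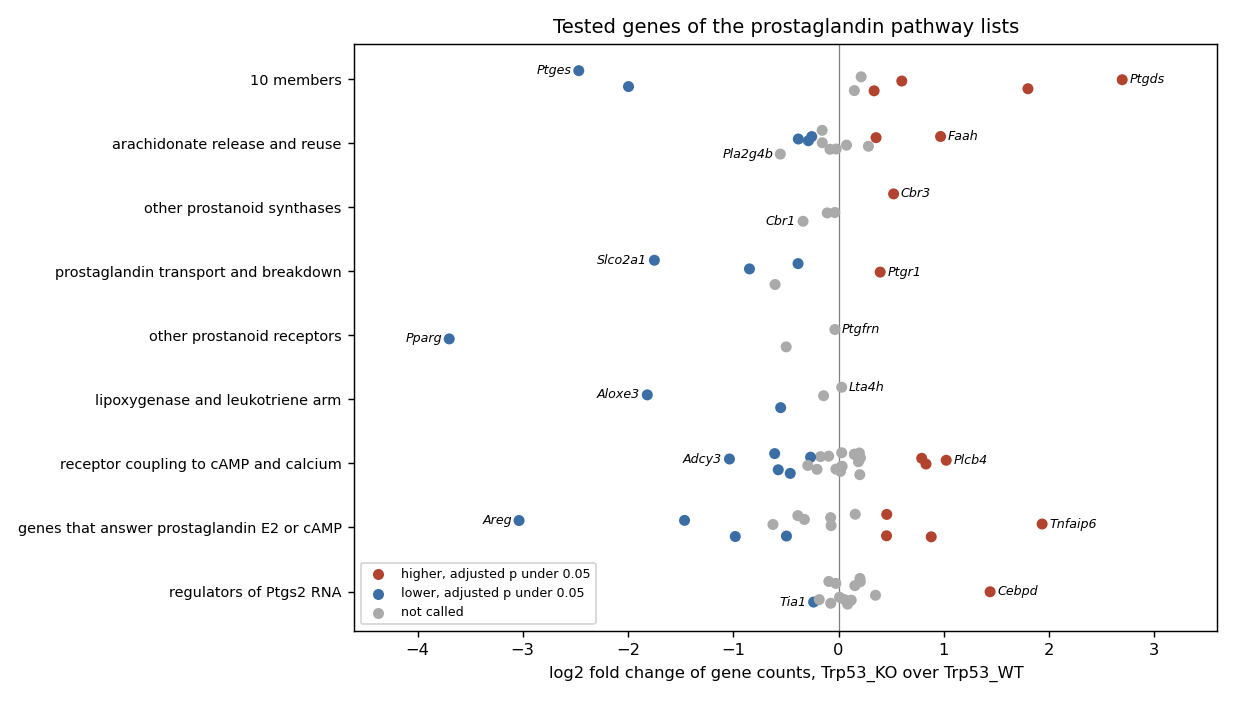
Points are the tested members, in a row of their own, and the tested genes of each of the 8 lists. They give the log2 fold change (Trp53_KO over Trp53_WT), with called and uncalled genes in different colours. Most of the 48 uncalled list genes lie near 0, and the list genes farthest from it are Pparg at -3.70, Areg at -3.04 and Tnfaip6 at 1.93. Among the members the farthest are Ptgds at 2.70, Ptges at -2.47 and Ptgs2 at -2.00.

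Of the 21 genes for release and reuse of arachidonic acid, 12 were tested, 2 rose and 3 fell, all by modest amounts except Faah. Faah, which hydrolyses the arachidonoyl amide anandamide, rose to 26.4 CPM in Trp53_KO, against 13.5 CPM in Trp53_WT (log2 fold change 0.97, edgeR adjusted p = 3.3e-05). Mboat7, which returns arachidonic acid to phosphatidylinositol, rose by 0.36 on the log2 scale (edgeR adjusted p = 0.010). Pla2g4a fell by 0.25 (edgeR adjusted p = 0.017) to 170 ± 10 CPM in Trp53_KO, against 203 ± 6.6 CPM in Trp53_WT, and Acsl4, which activates arachidonic acid, fell by 0.38 (edgeR adjusted p = 0.023). Neither call was stable: over the alternatives and left-out libraries the adjusted p ranged from 0.0026 to 0.089 for Pla2g4a and from 3.3e-04 to 0.095 for Acsl4, and no gene of this list fell without Trp53_KO replicate 1 or without Trp53_KO replicate 3, and 1 fell without Trp53_WT replicate 2 or without Trp53_WT replicate 3.

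Of 10 further prostanoid synthase genes 4 were tested, and Cbr3, a carbonyl reductase gene, was called, as higher by 0.52 on the log2 scale (edgeR adjusted p = 0.041). That call was lost with a replicate block, with DESeq2 and without Trp53_KO replicate 1, Trp53_KO replicate 3 or Trp53_WT replicate 2, with an adjusted p between 0.012 and 0.16 over all settings. Akr1b3, the aldose reductase gene that can make prostaglandin F2-alpha, had a log2 fold change of -0.11 (edgeR adjusted p = 0.27).

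Of 6 genes for transport and breakdown 5 were tested, 1 rose and 3 fell, and the largest differences were in transport. Slco2a1 encodes the prostaglandin transporter that takes prostaglandins up for breakdown. It had 1.17, 0.724 and 1.01 CPM in the Trp53_KO libraries, against 4.66, 2.77 and 2.68 CPM in the Trp53_WT libraries. Its log2 fold change was -1.75 ± 0.29 (SE; edgeR adjusted p = 0.0013), and the groups did not overlap. Abcc4 encodes MRP4, an exporter of prostaglandin E2, and fell to 51.6 ± 2.5 CPM in Trp53_KO, against 92.9 ± 14 CPM in Trp53_WT (SD, n = 3 each; log2 fold change -0.85 ± 0.11 SE, edgeR adjusted p = 2.3e-04). The RNAs of the uptake carrier and the export pump were thus both lower in Trp53_KO.

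The prostaglandin reductase genes, whose enzymes act after the dehydrogenase encoded by Hpgd, did not move together. Ptgr1 rose to 45.5 ± 1.7 CPM in Trp53_KO, against 34.6 ± 2.0 CPM in Trp53_WT (SD, n = 3 each; log2 fold change 0.40, edgeR adjusted p = 0.0038). Ptgr2 fell by 0.38 on the log2 scale (edgeR adjusted p = 0.038), and the call was lost in 5 of the 6 fits that left out a library, with an adjusted p of up to 0.17. Zadh2, also called Ptgr3, had a log2 fold change of -0.60 (edgeR adjusted p = 0.073), which was -0.24 without Trp53_WT replicate 1. It passed in 5 of 13 alternatives, among them no filter, the replicate block and DESeq2, each of which brought the genes of this list that fell to 4, and its adjusted p ranged from 1.9e-04 to 0.19.

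Among the membrane receptor genes for prostanoids on the lists, Ptger4 was the one with enough counts to be tested. Ptger2, Ptgdr and Ptgdr2 had no count in any library. Ptger1 had 10, 4 and 11 counts in the Trp53_KO libraries, against 4, 6 and 3 counts in the Trp53_WT libraries. Tbxa2r, the thromboxane receptor gene, had 6, 1 and 6 counts in the Trp53_KO libraries, against 1, 1 and 1 in the Trp53_WT libraries. Ptger3 had 0 counts over the Trp53_KO libraries and 2 over the Trp53_WT libraries, and Ptgir, the prostacyclin receptor gene, had 2 over Trp53_KO and 1 over Trp53_WT, so that Ptgis RNA was abundant where RNA for the prostacyclin receptor was near 0. These receptors had too few counts to enter the test, so no statement is made on a difference between the genotypes.

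Of the receptor list 3 further genes were tested, and 1 fell. With no filter, with DESeq2, without Trp53_WT replicate 2 or without Trp53_WT replicate 3, 2 fell. Pparg, a nuclear receptor gene whose protein binds a prostaglandin D2 product, had 0.357, 0.241 and 0.160 CPM in the Trp53_KO libraries, against 3.04, 4.06 and 3.002 CPM in the Trp53_WT libraries. Every Trp53_KO library was far below every Trp53_WT library, with a log2 fold change of -3.70 ± 0.30 (SE; edgeR adjusted p = 1.2e-05). Ppard, for which prostacyclin has been proposed as a ligand, had a log2 fold change of -0.50 (edgeR adjusted p = 0.085), which was -0.23 without Trp53_WT replicate 1. It passed in 4 of 13 alternatives, and its adjusted p ranged from 0.0027 to 0.24. Ptgfrn, which encodes a regulator of the prostaglandin F2-alpha receptor, had a log2 fold change of -0.03 (edgeR adjusted p = 0.76).

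The lipoxygenase and leukotriene arm, which competes for arachidonic acid, was mostly silent: of 16 genes 4 were tested, 2 fell and none rose. With no filter on low counts 1 rose and 2 fell, and with the stricter filter 1 fell. Alox5, the gene that opens the leukotriene pathway, had no count. Aloxe3, an epidermal lipoxygenase gene, fell by 1.82 on the log2 scale (edgeR adjusted p = 0.0049), and Mgst3, a microsomal glutathione transferase gene, fell by 0.55 (edgeR adjusted p = 0.0025). Lta4h, the leukotriene A4 hydrolase gene, had a log2 fold change of 0.03 with no call.

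Of 25 genes that couple receptors to cAMP and calcium, 23 were tested, 3 rose and 5 fell; without Trp53_WT replicate 1, 6 rose. Adcy6, an adenylyl cyclase gene, rose by 0.79 on the log2 scale (edgeR adjusted p = 5.9e-05). Rapgef3, which encodes the cAMP sensor EPAC1, rose by 0.83 (edgeR adjusted p = 2.0e-05), and Plcb4, a phospholipase C gene, rose by 1.02 (edgeR adjusted p = 4.3e-05). Arrb1, the beta-arrestin-1 gene, fell by 0.46 (edgeR adjusted p = 4.2e-04).

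Of 19 genes known to answer prostaglandin E2 or cAMP, 14 were tested, 4 rose and 4 fell, so the list did not move one way. Areg and Ereg, EGF receptor ligand genes induced with Ptgs2 in the ovulating follicle, both fell. Btc, another EGF receptor ligand gene of the list, did not pass. It averaged 212 CPM in Trp53_KO and 222 CPM in Trp53_WT (log2 fold change -0.07, edgeR adjusted p = 0.41). Areg had 2.70, 2.11 and 2.66 CPM in the Trp53_KO libraries, against 18.5, 23.6 and 19.5 CPM in the Trp53_WT libraries, a log2 fold change of -3.04 ± 0.15 (SE; edgeR adjusted p = 4.1e-07). Ereg fell to 85.1 ± 14 CPM in Trp53_KO, against 235 ± 17 CPM in Trp53_WT (SD, n = 3 each; log2 fold change -1.46 ± 0.11 SE, edgeR adjusted p = 8.6e-06). Tnfaip6, a hyaluronan matrix gene of the same ovulatory setting, rose to 9.66 ± 0.76 CPM in Trp53_KO, against 2.49 ± 0.39 CPM in Trp53_WT (SD, n = 3 each; log2 fold change 1.93 ± 0.15 SE, edgeR adjusted p = 7.5e-06). Pde4b, a cAMP phosphodiesterase gene, rose by 0.88 on the log2 scale (edgeR adjusted p = 4.8e-04). The relation of these values to those of Ptgs2 was not tested.

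Of 14 genes known to control Ptgs2 RNA all were tested, and 1 rose, 1 fell and 12 did not pass. That is 14.3% called, beside 30.3% of all tested genes, and nothing is read from the difference. Without Trp53_WT replicate 1, 2 rose and 2 fell. Cebpd, which encodes a transcription factor that binds the Ptgs2 promoter, rose to 7.45 ± 0.39 CPM in Trp53_KO, against 2.76 ± 0.19 CPM in Trp53_WT (SD, n = 3 each; log2 fold change 1.44 ± 0.13 SE, edgeR adjusted p = 2.5e-05), and so moved opposite to Ptgs2. Tia1, which encodes a protein that binds AU-rich Ptgs2 RNA and holds back its translation, fell by 0.24 (edgeR adjusted p = 0.024), a call lost in 6 of 13 alternatives, among them each left-out library but Trp53_KO replicate 2 and Trp53_WT replicate 1, with an adjusted p of up to 0.15. Rela, an NF-kB subunit gene, had a log2 fold change of -0.18 (edgeR adjusted p = 0.084), and Usf1, whose protein binds E-boxes, had one of 0.21 (edgeR adjusted p = 0.089). Zfp36l1 had 41.1, 44.8 and 39.7 CPM in the Trp53_KO libraries, against 47.3, 27.1 and 24.7 CPM in the Trp53_WT libraries. Its log2 fold change was 0.35 (edgeR adjusted p = 0.24). It passed as higher in 2 of 13 alternatives, with an adjusted p between 5.9e-06 and 0.50 over the alternatives.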

How the data were processed

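The authors deposited raw read counts per gene for 6 libraries and a table of repeat elements with their own fold changes on a log2 scale and FDR values (adjusted p-values). STAR, featureCounts, edgeR and the mm10 genome are named in the submitters' processing notes; the sources used here give no version, annotation or strand setting. The deposited fold changes do not name a log base: over 550 repeat rows inside clearly changed genes the median of their ratio to the log2 fold change of the gene was 1.03, so they were read as log2.

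Counts were fitted with edgeR 4.0.16 (R 4.3.3; TMM scaling, filterByExpr, quasi-likelihood test, genotype as the only term), with Benjamini-Hochberg adjustment over all tested genes and a threshold of 0.05. CPM are TMM-scaled. Lengths are merged exons of GENCODE M21 (GRCm38), found by symbol for 84.1% of tested genes. The fit was tested on simulated counts before use. Promoters are from RefSeq GRCm38.p6. A floor of 3 counts covers counting error only, since PCR copies cannot be told from separate molecules. Depth was 15319956 to 19954170 counts per library.

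The members, lists and tests were chosen with earlier results of these data known. Named genes were Trp53, the 10 members, the prostanoid receptors, synthases, transporters and breakdown enzymes of the lists, per list up to 4 tested genes by lowest adjusted p, and the nearest profiles among genes with a mean of at least 5 CPM. Alternatives were RLE and upper quartile scaling, no filter, a stricter filter, a replicate block, DESeq2 1.42.0, limma-voom (limma 3.58.1) and leaving out each library; all come from the same counts.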

Additional observations from a re-analysis of the deposited data

How the results depend on the processing

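Among Trp53, the members, the pathway genes, Ptgs2os and Ptgs2os2, no called value changed sign under the alternatives that could be run for it (12 for Ptges, Ptgds and Aloxe3, 13 for the others named); Tpr, Hmcn1, cell type markers and nearest profiles were not recomputed. With 1 library left out, genes called higher ranged from 1388 to 2418 around 1930, and genes called lower from 1589 to 2566 around 2200. Pathway genes called higher ranged from 10 to 16 and pathway genes called lower from 12 to 22, with the 12 reached without Trp53_KO replicate 3. Members called lower numbered 2; there was 1 with the stricter filter, which leaves Ptges untested, and 1 with the replicate block, and the range was 1 to 2 with a library left out, since Ptges lost its call. The Ptges log2 fold change was -3.58 with limma-voom and -6.90 without Trp53_KO replicate 1, and the Ptgds value was 3.14 without Trp53_WT replicate 2. Of 31 pathway genes called, 9 lost the call under at least 1 alternative. The labels do not say whether replicate numbers pair the libraries, and the main fit did not use them. Deviations of same-numbered libraries correlated at -0.05, 0.08 and -0.12, beside -0.08 to 0.13 for differently numbered ones. With the number as a block 1771 genes were higher and 2035 lower, with 11 and 19 pathway genes. Low counts in at least 1 genotype, as for Ptges, Ptgds and most receptors, limit what this depth can show.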
